A study of Homo sapiens with 8 samples.

Results

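Expression of 10 genes of the TNF receptor superfamily and its death-domain adaptors was compared in K562 cells with and without Lip-1. The genes were taken by symbol from a table of 19447 gene symbols, and all 10 were found. They are the TRAIL receptors TNFRSF10A, TNFRSF10B and TNFRSF10D, the death receptors TNFRSF1A, TNFRSF21 and FAS, the receptors without a death domain TNFRSF8 and TNFRSF12A, and the adaptors FADD and TRADD. K562 is an established human line from a chronic myeloid leukaemia. Of the 8 RNA libraries, 4 came from cells without Lip-1 (controls 1 to 4, marked Day 0), 3 from cells at 10 µM (replicates 2 to 4) and 1 from cells at 20 µM (replicate 1). The treated cells had 24 h of Lip-1 and are marked Day 1. All groups carry the label WT, and no transgene or deletion is named. The labels do not spell out Lip-1, a name in common use for the ferroptosis inhibitor liproxstatin-1, and do not mention a vehicle. Treatment and day coincide, so the effects of each cannot be told apart in any contrast with control. The libraries are of 1 cell line, and nothing says that they came from separate cultures, so p-values measure the spread between these samples, which may be technical.

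TNF receptor family proteins sit in the cell membrane and respond to trimeric ligands of the TNF family. Receptors with a death domain, such as FAS and the TRAIL receptors TNFRSF10A and TNFRSF10B, recruit the adaptor FADD, which brings in caspase-8. TNFRSF1A first recruits TRADD, through which TRAFs and ubiquitin ligases carry the signal to NF-kB, and a later complex can pass to FADD and caspase-8. Receptors without a death domain bind TRAFs directly. K562 cells are known to carry TRAIL receptors.

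Total counts ran from 71151415 to 141307169 per library. Levels are CPM, the counts of a gene scaled to a fixed library total, and levels of different genes are set against each other only as CPM per kilobase of exon. The 8 erythroid and K562 markers examined were above 0 in all 8 libraries, with HBG2, a fetal globin, at 1469 to 2354 CPM in the treated libraries and 2044 to 3560 CPM in the controls. Summed over the 8, they ran from 2718 to 4411 CPM in the treated libraries and 4091 to 7392 CPM in the controls. The 4 lymphocyte markers summed to 6.11 to 22.8 CPM in treated libraries and 12.9 to 17.0 CPM in controls, nearly all CD3D, with MS4A1 at 0 in all libraries but 1. The 3 monocyte markers summed to 19.4 to 106.8 CPM in treated libraries and 17.7 to 124.0 CPM in controls, nearly all LYZ. The 5 epithelial and fibroblast markers summed to 28.1 to 43.1 CPM in treated libraries and 32.3 to 55.1 CPM in controls, mostly EPCAM. Their part in the results was not tested. In bulk RNA, fewer cells of a type and less RNA per cell cannot be told apart. The 20 µM group is a single library, replicate 1, and its values have no replicate check.

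After 24 h at 10 µM, TNFRSF10B and TNFRSF12A were higher than in control, while TNFRSF8 and TNFRSF21 were lower. TNFRSF10B had a log2 fold change of 0.94, TNFRSF12A of 0.96, TNFRSF21 of -1.10 and TNFRSF8 of -1.51. TNFRSF1A, TNFRSF10A, FADD, TRADD and FAS did not pass the test at this dose. In the 20 µM library TNFRSF10B was a further 9.75-fold above 10 µM, and it and TNFRSF12A were then the highest of the 10 genes per kilobase of exon. TNFRSF10D and FAS were near 0 in all libraries.

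The promoters of TNFRSF8 and TNFRSF21, the receptors that were lower at 10 µM, are shown beside that of TNFRSF9, a further receptor of the superfamily, which rose. Each is a stretch upstream of the RefSeq start, from GRCh38.p14, read 5′ to 3′ on the gene's strand. Those of TNFRSF8 and TNFRSF21 end at the base before the start (-1). That of TNFRSF9 ends at -31, since a GENCODE start lies in the bases after it. In GENCODE the TNFRSF9 gene runs from 7915894 to 7943165, so its stretch lies inside the gene as given there. For TNFRSF8 the bases just after the RefSeq start were not found in a GENCODE transcript of the gene. TNFRSF8 lies at chr1:12063053-12063302 on the plus strand, TNFRSF21 at chr6:47309906-47310155 on the minus strand and TNFRSF9 at chr1:7940870-7941089 on the minus strand. Capitals mark a match to a searched motif.
TNFRSF8: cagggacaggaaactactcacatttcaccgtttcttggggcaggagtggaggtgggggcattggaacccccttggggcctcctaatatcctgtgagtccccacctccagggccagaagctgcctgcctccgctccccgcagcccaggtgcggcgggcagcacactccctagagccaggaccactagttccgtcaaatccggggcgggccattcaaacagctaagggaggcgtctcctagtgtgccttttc
TNFRSF21: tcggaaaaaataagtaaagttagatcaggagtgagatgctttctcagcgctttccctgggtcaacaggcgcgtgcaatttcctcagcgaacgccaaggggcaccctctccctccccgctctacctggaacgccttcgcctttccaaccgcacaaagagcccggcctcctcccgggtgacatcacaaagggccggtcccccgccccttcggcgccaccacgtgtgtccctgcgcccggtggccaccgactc
TNFRSF9: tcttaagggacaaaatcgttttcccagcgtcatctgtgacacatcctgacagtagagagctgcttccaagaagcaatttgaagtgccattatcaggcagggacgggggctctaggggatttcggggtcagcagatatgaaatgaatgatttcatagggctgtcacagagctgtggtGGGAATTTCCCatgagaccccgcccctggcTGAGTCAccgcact
The motifs, searched on both strands, were TGANTCA for AP-1, the NF-kB motif, TGATGCAA for the ATF4-CHOP composite, AGATAA for GATA factors, GCGGGGGCG for EGR and CCGGAAG for ETS. Of 35116 RefSeq promoter windows, 6.57% held the AP-1 letters, 5.21% the NF-kB motif, 0.772% the ATF4-CHOP composite, 9.17% GATA, 4.72% EGR and 8.52% ETS. TNFRSF9 held an NF-kB match that begins at -74 from the start and overlaps a match on the other strand, and an AP-1 match at -44 to -38. None of the 6 motifs was found in the windows printed for TNFRSF8 and TNFRSF21, which says only that these letters are not in these windows. Of the 10 genes, 5 had a window. TNFRSF10B and TNFRSF12A, which rose at 10 µM, had none, so the promoters of genes that rose and fell cannot be compared within the 10. TNFRSF1A also held none of the motifs. FADD held a GATA match at -19 to -14. FAS has several windows, with AP-1, NF-kB and EGR matches among them.

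TNFRSF10B (death receptor DR5) binds TRAIL and signals through FADD. In GENCODE release 29, the source of all gene coordinates here, it lies on chromosome 8 (hg38, 23020133 to 23069179, minus strand). In controls 1 to 4 it stood at 21.2, 19.2, 15.9 and 18.7 CPM, at 10 µM at 28.0, 38.6 and 51.6 CPM, and at 20 µM at 382.8 CPM (exact 95% binomial interval 379.4 to 386.3, counting error only). Every treated library lay above every control, and the 20 µM library lay far above the 3 at 10 µM. The mean was 39.4 ± 11.8 CPM at 10 µM (SD, n = 3) and 18.8 ± 2.19 CPM in controls (SD, n = 4). The gene rose at 10 µM by 0.94 on the log2 scale (SE 0.17, edgeR adjusted p = 0.00785) and was higher again at 20 µM than at 10 µM by 3.29 on the log2 scale (SE 0.24, edgeR adjusted p = 0.000112).

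TNFRSF10A (DR4) is the second TRAIL receptor with a death domain and a neighbour of TNFRSF10B on chromosome 8 (23190452 to 23225126, minus strand). It stood at 23.1, 31.5, 37.3 and 25.2 CPM in controls 1 to 4, at 29.6, 25.0 and 18.6 CPM at 10 µM, and at 29.04 CPM at 20 µM. The groups overlapped, and the lowest value was that of 10 µM replicate 4. Neither contrast passed the test, at log2 -0.40 for 10 µM against control (SE 0.24, edgeR adjusted p = 0.284) and log2 0.24 for 20 µM against 10 µM (SE 0.35, edgeR adjusted p = 0.651). With the replicate number as a block, the gene was called lower at 10 µM (-0.52, edgeR adjusted p = 0.0148), and it was lower than its same-numbered control in 3 of 3 pairs at that dose. Of its 2951 exonic bases, 266 are shared with AC100861.1 and 224 with TNFRSF10A-AS1, both on the other strand. Smaller overlaps with genes on the other strand were 67 bases for TNFRSF10B (RHOBTB2), 126 for TRADD (FBXL8) and 40 for TNFRSF12A (CLDN6).

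Set against each other per kilobase of exon, TNFRSF10B was below TNFRSF10A in all 4 controls and above it in 10 µM replicate 4 and the 20 µM library. The ratio of TNFRSF10B to TNFRSF10A was 0.525, 0.349, 0.244 and 0.425 in controls 1 to 4, 0.542, 0.883 and 1.58 at 10 µM, and 7.54 at 20 µM. The ratios at 10 µM did not overlap those of the controls, although the lowest, 0.542, was close to the highest control. TNFRSF10D, a TRAIL receptor with a truncated death domain that does not signal death, had 0, 5, 0 and 3 counts in the controls, 2, 0 and 0 at 10 µM and 4 at 20 µM. It did not pass the filter on low counts in either fit, and a library at 0 allows up to 3 counts, which is 0.0212 to 0.0422 CPM.

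TNFRSF1A, the main receptor for TNF, lies on chromosome 12 (6328757 to 6342114, minus strand). It stood at 35.6, 33.5, 35.3 and 31.2 CPM in controls 1 to 4, at 42.6, 39.0 and 45.1 CPM at 10 µM, and at 78.0 CPM at 20 µM (exact 95% binomial interval 76.5 to 79.6). In CPM every treated library was above every control, by a small margin at 10 µM. With the TMM scaling of the fits the groups overlapped. On the log2 scale less the control mean, 10 µM replicate 3 was then at 0.118 and control 3 at 0.146. The fold change at 10 µM did not pass the test (log2 0.19, SE 0.10, edgeR adjusted p = 0.245), and the 20 µM library was higher than those at 10 µM (log2 0.88, SE 0.15, edgeR adjusted p = 0.00325).

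FAS, the receptor for FAS ligand on chromosome 10 (88990582 to 89015785, plus strand), had 13, 5, 0 and 6 counts in the controls, 13, 0 and 12 at 10 µM and 22 at 20 µM. Each value was under 0.2 CPM and the groups overlapped, so no difference was detectable at this depth (10 µM against control, log2 0.93, SE 1.54, edgeR adjusted p = 0.732). Of its 4253 exonic bases 380 are shared with ACTA2 on the other strand. TNFRSF21 (DR6), a death receptor that can signal to JNK, lies on chromosome 6 (47231532 to 47309905, minus strand). It stood at 7.24, 6.87, 4.73 and 8.58 CPM in controls 1 to 4, at 3.86, 3.43 and 3.12 CPM at 10 µM, and at 6.82 CPM at 20 µM. The 3 libraries at 10 µM were below every control, and the 20 µM library lay within the range of the controls. It fell at 10 µM (log2 fold change -1.10, SE 0.23, edgeR adjusted p = 0.0134). That call was lost without 10 µM replicate 3 (adjusted p = 0.0557) or replicate 4 (adjusted p = 0.0576). The 20 µM library did not pass the test against 10 µM (0.97, SE 0.33, edgeR adjusted p = 0.0564), although DESeq2 called it higher (adjusted p = 0.0339).

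TNFRSF8 (CD30), a lymphoid activation receptor that signals through TRAFs, lies on chromosome 1 (12063377 to 12144207, plus strand). It stood at 27.1, 30.6, 37.4 and 26.2 CPM in controls 1 to 4, at 12.3, 10.8 and 12.1 CPM at 10 µM, and at 14.1 CPM at 20 µM (exact 95% binomial interval 13.5 to 14.8). All 4 treated libraries lay below every control, within a narrow range of one another. The mean was 11.7 ± 0.809 CPM at 10 µM (SD, n = 3) and 30.3 ± 5.10 CPM in controls (SD, n = 4). It fell at 10 µM (log2 -1.51, SE 0.18, edgeR adjusted p = 0.00176), and the difference between 20 µM and 10 µM was 0.27 (SE 0.26, edgeR adjusted p = 0.482).

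TNFRSF12A (Fn14), the receptor for TWEAK and a small protein that binds TRAFs, lies on chromosome 16 (3018445 to 3022383, plus strand). It stood at 28.3, 15.1, 17.1 and 22.5 CPM in controls 1 to 4, at 37.6, 39.4 and 55.3 CPM at 10 µM, and at 165.9 CPM at 20 µM (exact 95% binomial interval 163.6 to 168.2). Every treated library lay above every control, in the order of dose. The mean was 44.1 ± 9.73 CPM at 10 µM (SD, n = 3) and 20.7 ± 5.89 CPM in controls (SD, n = 4). It rose at 10 µM (log2 fold change 0.96, SE 0.20, edgeR adjusted p = 0.0118), a call that was lost without 10 µM replicate 4 (0.80, adjusted p = 0.0555). The 20 µM library was higher than those at 10 µM by 1.92 on the log2 scale (SE 0.28, edgeR adjusted p = 0.00183). Per kilobase of exon, the ratio of TNFRSF12A to TNFRSF8 was 2.11, 0.999, 0.926 and 1.74 in controls 1 to 4, 6.21, 7.38 and 9.24 at 10 µM, and 23.8 at 20 µM.

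**Figure D1:**
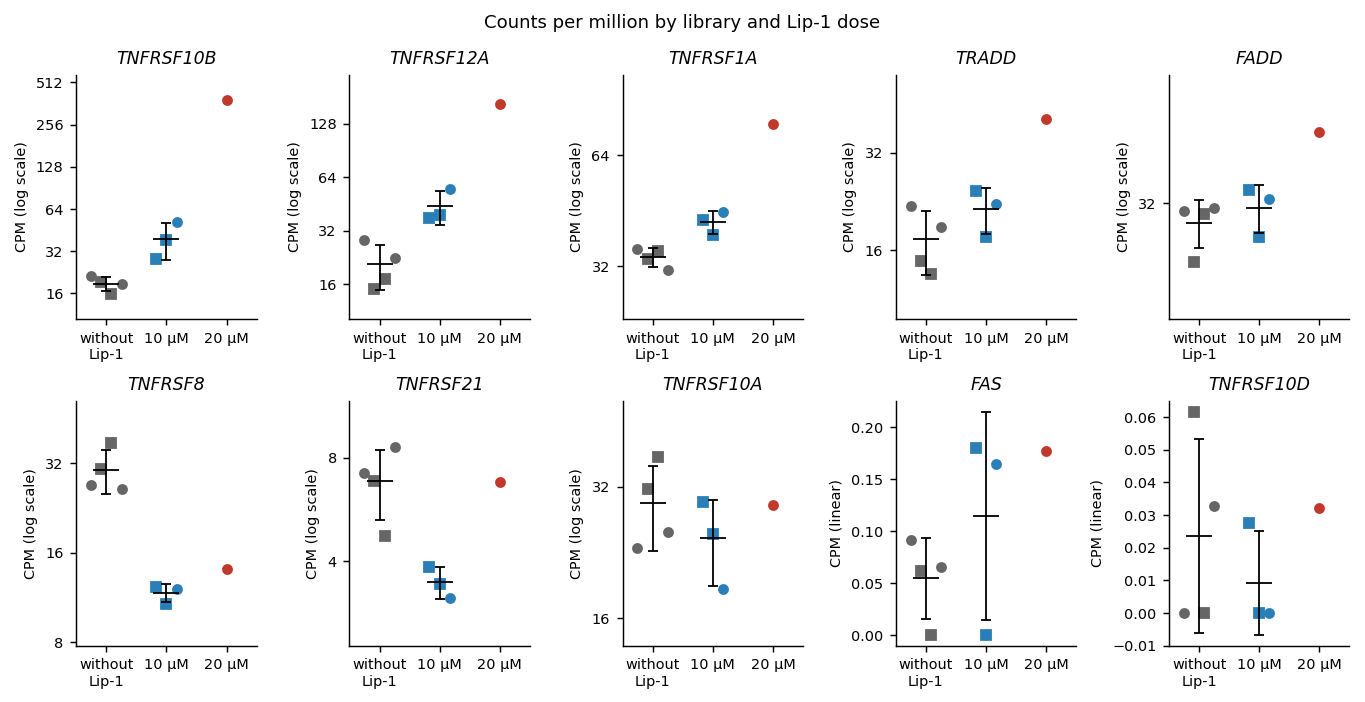
Level of each of the 10 genes in CPM (log scale, except FAS and TNFRSF10D on a linear scale) by Lip-1 dose. Points are libraries, round for names with letters and square for names with digits, and bars are the mean ± SD of the 4 controls and the 3 libraries at 10 µM. TNFRSF10B reaches 382.8 CPM at 20 µM, against 15.9 to 21.2 CPM in the controls, while all treated libraries of TNFRSF8 lie at 10.8 to 14.1 CPM, under every control.

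Of the adaptors, FADD (chromosome 11, 70203163 to 70207390, plus strand) stood at 30.6, 23.5, 30.2 and 31.1 CPM in controls 1 to 4, at 34.2, 26.9 and 32.7 CPM at 10 µM, and at 46.3 CPM at 20 µM. The controls and the libraries at 10 µM overlapped, and the 20 µM library was the highest. Its log2 fold change was -0.01 at 10 µM against control (SE 0.14, edgeR adjusted p = 0.960), of either sign under other settings, and 0.57 at 20 µM against 10 µM (SE 0.20, edgeR adjusted p = 0.0650), which DESeq2 called higher (adjusted p = 0.0426). FADD shares 1011 of its 1841 exonic bases with the antisense gene AP000879.1. Whether the counting used strand is not given in the sources used here, so reads of the pair cannot be told apart. TRADD (chromosome 16, 67154180 to 67160298, minus strand) stood at 21.9, 14.8, 13.5 and 18.9 CPM in controls 1 to 4, at 24.4, 17.6 and 22.3 CPM at 10 µM, and at 40.6 CPM at 20 µM. The controls and 10 µM overlapped, and each treated library was above its same-numbered control, in 4 of 4 pairs. TRADD did not pass the test at 10 µM (log2 0.19, SE 0.17, edgeR adjusted p = 0.498) and was higher at 20 µM than at 10 µM (log2 0.92, SE 0.25, edgeR adjusted p = 0.0256). With the replicate block the last call was lost (log2 0.53, edgeR adjusted p = 0.222), as it was without 10 µM replicate 3 (adjusted p = 0.0847) or replicate 4 (adjusted p = 0.0598).

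Counted together, 9 of the 10 genes were tested at 10 µM against control, where edgeR called 19.1% of the 14857 genes tested at an adjusted p under 0.05, 9.34% higher and 9.79% lower. TNFRSF10B and TNFRSF12A rose, TNFRSF8 and TNFRSF21 fell, and 5 did not pass. With the replicate block 4657 genes were called in place of 2842, and TNFRSF10A joined the genes that fell. The count of all genes called was 1364 and 1463 without 10 µM replicates 3 and 4, and 1880 and 1640 without controls 2 and 3, while 3 and 2 of the genes described here were called without 10 µM replicates 3 and 4. In CPM, the libraries at 10 µM did not overlap the controls in 5 of the 9 genes. TNFRSF10B, TNFRSF1A and TNFRSF12A lay above and TNFRSF8 and TNFRSF21 below. Of all genes tested 32.6% did not overlap, 21.8% above and 10.7% below. CPM leaves out the TMM factor, which was 1.018 to 1.085 at 10 µM and 0.903 to 1.000 in controls. Once scaled by it, TNFRSF1A overlapped (0.118 in 10 µM replicate 3 and 0.146 in control 3, log2 less the control mean). The median log2 fold change was 0.19 over the 9 genes that passed the filter and 0.05 over all genes tested.

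At 20 µM against 10 µM, edgeR called 26.3% of the 14857 genes, 11.7% higher and 14.6% lower, with the single library assumed to vary like the others. TNFRSF10B, TNFRSF12A, TNFRSF1A and TRADD were called higher, and the other 5 tested had positive log2 fold changes of 0.24 to 0.97 that did not pass. The median was 0.88 over the 9 genes and 0.01 over all genes tested. This contrast and that of 10 µM with control share the 3 libraries at 10 µM.

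**Figure D2:**
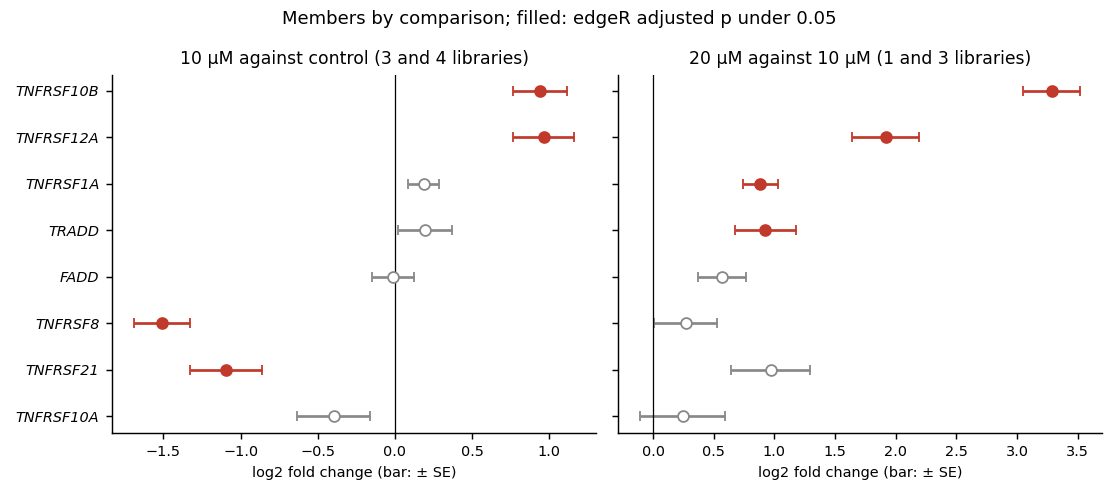
Log2 fold change ± SE of 8 of the genes, for 10 µM against control (left, 3 and 4 libraries) and for 20 µM against 10 µM (right, 1 and 3 libraries), with filled points for an edgeR adjusted p under 0.05. FAS, whose SE exceeds its fold change, is not drawn. TNFRSF8 and TNFRSF21 lie left of 0 in the contrast of 10 µM with control, and all 8 points lie right of 0 in the contrast of 20 µM with 10 µM.

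With both doses pooled, 8 of the 10 genes passed the filter. Of all 13101 genes tested, edgeR called 14.2%, 7.47% higher and 6.69% lower. TNFRSF12A rose (log2 fold change 1.74, SE 0.48, edgeR adjusted p = 0.0443) and TNFRSF8 fell (-1.43, SE 0.18, edgeR adjusted p = 0.00905), each in 4 of 4 treated libraries. TNFRSF10B had the largest fold change of the 8, 2.63 (SE 0.81), and did not pass (edgeR adjusted p = 0.0594). Without the 20 µM library, which leaves 10 µM alone against control, TNFRSF10B was called, at 0.93 (edgeR adjusted p = 0.00762). TNFRSF21 was then called too, at -1.10 (edgeR adjusted p = 0.0133), and 4 of the genes were called in all. Without 10 µM replicate 2 TNFRSF10B was called too (2.94, adjusted p = 0.0381). TNFRSF12A was not called without 10 µM replicate 3 or 4, or without any 1 of controls 1 to 4, with adjusted p of 0.0519 to 0.131, and 1 gene, TNFRSF8, remained called in each of these. TNFRSF8 kept its call without each library in turn, with log2 fold changes of -1.51 to -1.28. The count of all genes called, 1855, was 3021 without the 20 µM library, 814 and 312 without 10 µM replicates 3 and 4, and 567, 149, 64 and 315 without controls 1, 2, 3 and 4, and with the replicate block it was 2815. For 4 of the 8 genes the treated range of CPM lay wholly outside that of the controls, against 28.6% of all genes tested. TNFRSF1A, among these 4, overlapped the controls once scaled by TMM.

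The submitters' library names fall into a pattern of letters (20 µM replicate 1, 10 µM replicate 4, controls 1 and 4) and one of digits (10 µM replicates 2 and 3, controls 2 and 3), a pattern that no label calls a batch. Within the digits, all of whose treated libraries are at 10 µM, the log2 fold changes were 0.77 for TNFRSF10B, 1.10 for TNFRSF12A, -1.72 for TNFRSF8 and -0.82 for TNFRSF21, with edgeR adjusted p of 0.0166, 0.00168, 0.000417 and 0.0621 in that order. Within the letters at 10 µM the same genes stood at 1.19, 0.94, -1.32 and -1.52, from 1 treated library, 10 µM replicate 4, and 2 controls. With a single treated library there, these values have no replicate check at that dose and are given without a test. The difference in response between letters and digits, both doses pooled, was 2.60 for TNFRSF10B (SE 1.07, edgeR adjusted p = 0.877), and edgeR called 0 of 13101 genes for it, with 439 at an unadjusted p under 0.05. As the only 20 µM library is letter-named, this difference cannot be told apart from dose. The contrast of 20 µM with 10 µM likewise sets a letter-named library against 10 µM libraries of which replicates 2 and 3 are digit-named.

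The order of the levels per kilobase of exon shifted with dose. In the controls the means were 15.7 for FADD, 11.2 for TNFRSF12A, 9.93 for TNFRSF10A, 8.47 for TNFRSF1A, 8.11 for TNFRSF8 and 6.72 for TRADD, and the ranges of neighbours in this order overlapped. TNFRSF10B (3.64), TNFRSF21 (1.91) and FAS (0.0129) followed, each without overlap with the gene above it, and TNFRSF10D (0.0067) overlapped FAS. At 10 µM TNFRSF12A led at 23.9, then FADD at 17.0, TNFRSF1A at 10.55 and TRADD at 8.35, each without overlap with the gene above. TRADD, TNFRSF10A (8.27) and TNFRSF10B (7.63) overlapped, and TNFRSF8 (3.13) and TNFRSF21 (0.965) stood apart below them. At 20 µM TNFRSF12A was at 89.8 and TNFRSF10B at 74.2 CPM per kilobase, above FADD at 25.2, TNFRSF1A at 19.5, TRADD at 15.8, TNFRSF10A at 9.84, TNFRSF8 at 3.78 and TNFRSF21 at 1.90.

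Summed over TNFRSF12A, TNFRSF10B, TNFRSF10A, TNFRSF1A, TNFRSF8 and TNFRSF21, receptor level was 45.4, 41.1, 45.1 and 41.5 CPM per kilobase in controls 1 to 4, 50.8, 50.8 and 61.6 at 10 µM, and 199.0 at 20 µM. The share of TNFRSF8 in that sum was 16.0%, 19.9%, 22.2% and 16.8% in the controls, 6.45%, 5.68% and 5.25% at 10 µM and 1.90% at 20 µM. From 10 µM to 20 µM the sum grew, while the level of TNFRSF8 itself was not lower (mean 3.13 and then 3.78 CPM per kilobase). The share of TNFRSF10B was 9.06%, 9.08%, 6.83% and 8.73% in the controls, 10.7%, 14.7% and 16.2% at 10 µM and 37.3% at 20 µM. The share of TNFRSF12A was 33.7%, 19.9%, 20.5% and 29.3% in the controls, 40.0%, 41.9% and 48.5% at 10 µM and 45.1% at 20 µM. For these 3 receptors no treated library overlapped the controls, and the 20 µM library lay within the range at 10 µM for TNFRSF12A.

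**Figure D3:**
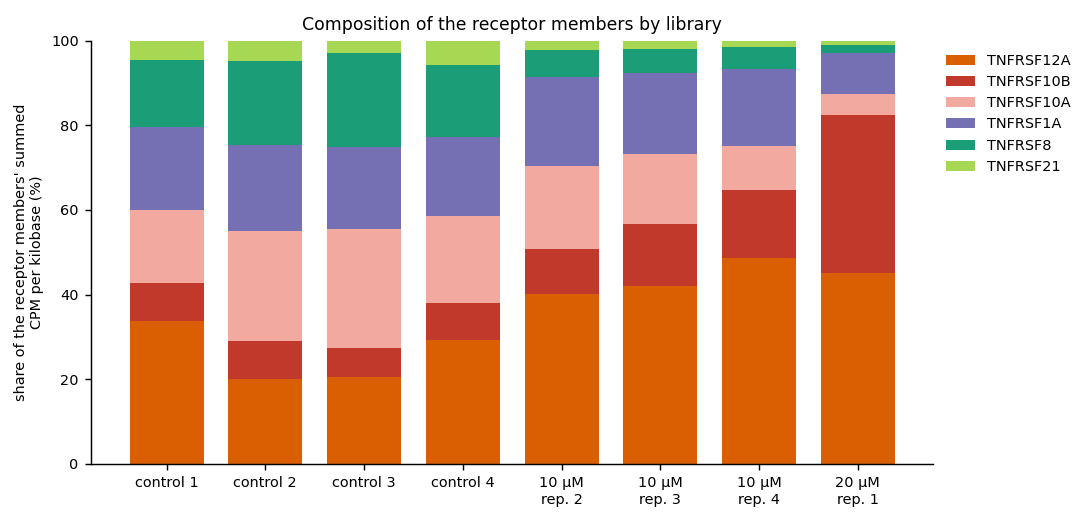
Share (%) of each of 6 receptors in their summed CPM per kilobase of exon, 1 bar per library in the order of dose. TNFRSF8 takes 1.90% at 20 µM and 16.0% to 22.2% in the controls, and TNFRSF10B takes 37.3% at 20 µM and 6.83% to 9.08% in the controls. The sum is 199.0 at 20 µM and 41.1 to 45.4 in the controls, so shares do not show levels.

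Over all 8 libraries, the genes whose profile of log2 CPM (less the mean of the controls) was nearest to that of TNFRSF8, among 13101, were PLD6, RFWD3 and DPH2, at root mean square distances of 0.20, 0.217 and 0.257. Nearest to TNFRSF12A were SEL1L3, MICAL1 and VAT1, at 0.135, 0.149 and 0.151. TNFRSF12A lay above its control mean by 0.79, 0.88 and 1.27 on the log2 scale in 10 µM replicates 2, 3 and 4 and by 2.93 at 20 µM. TNFRSF10B followed the same order of libraries, at 0.47, 0.96, 1.28 and 4.24. TNFRSF8 had no such order, at -1.39, -1.55 and -1.48 at 10 µM and -1.19 at 20 µM.

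Among the other receptors of the superfamily, 16 of 21 were tested at 10 µM, and TNFRSF9 (4-1BB, a costimulatory receptor of T cells) was the 1 that rose. It had 93, 8, 0 and 57 counts in controls 1 to 4, 372, 801 and 619 at 10 µM and 16273 at 20 µM. Every treated library was above every control, and its log2 fold change at 10 µM was 4.42 (SE 0.77, edgeR adjusted p = 0.00639). It was higher at 20 µM than at 10 µM by 3.97 (edgeR adjusted p = 0.0129), but not with the replicate block (edgeR adjusted p = 0.117). TNFRSF1B, the second TNF receptor, did not pass at 10 µM (-0.48, edgeR adjusted p = 0.105) and was called lower with the replicate block (-0.56, edgeR adjusted p = 0.00368), while CD40 did not pass in either (0.88, edgeR adjusted p = 0.306). The median log2 fold change of the 16 was 0.07, against 0.05 over all genes tested at 10 µM, of which 9.34% rose. At 20 µM against 10 µM TNFRSF9 and LTBR, the lymphotoxin receptor (0.76, edgeR adjusted p = 0.00798), were called higher, and the call of LTBR was lost with the replicate block (edgeR adjusted p = 0.0514). LTBR was chosen after its values were seen, and 1 of the 16 was called without 10 µM replicate 2. Over all genes tested in that contrast, 11.7% were called higher.

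Of the 18 ligands, 13 were tested at 10 µM and 3 rose, with a median log2 fold change of 0.75. Of all genes tested 9.34% rose at this dose, with a median of 0.05. TNFSF9, the ligand of TNFRSF9, rose by 0.68 on the log2 scale (edgeR adjusted p = 0.00505) and TNFSF14 (LIGHT) by 2.47 (edgeR adjusted p = 0.0288). TNF, the ligand of TNFRSF1A, was the other (edgeR adjusted p = 0.00899) and was chosen after its values were seen. It had 0, 0, 1 and 1 counts in controls 1 to 4, 3, 36 and 26 at 10 µM and 1256 at 20 µM. TNFSF4 (the OX40 ligand) did not pass at 10 µM (2.13, edgeR adjusted p = 0.0543). TNFSF10 (TRAIL), the ligand of TNFRSF10A and TNFRSF10B, was likewise chosen after its values were seen. It had 153, 28, 24 and 62 counts in controls, 39, 56 and 242 at 10 µM and 493 at 20 µM. TNFSF10 did not pass at 10 µM (1.23, edgeR adjusted p = 0.247) or with both doses pooled (1.73, edgeR adjusted p = 0.124). The count of ligands that rose at 10 µM was 2 without 10 µM replicate 3 or 4 or controls 2 or 3. TNF, TNFSF9 (1.31, edgeR adjusted p = 0.000844) and TNFSF14 (2.85, edgeR adjusted p = 0.0342) were called higher at 20 µM than at 10 µM, and the median of the 13 was 1.21. Over all genes tested in that contrast, 11.7% were called higher and the median was 0.01.

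Below the receptors, 4 of 12 tested genes of death signalling rose at 10 µM, where 9.34% of all genes tested rose and 9.79% fell. DIABLO, which relieves the block of caspases by XIAP, fell (-0.30, edgeR adjusted p = 0.0375, chosen after its values were seen). CASP8, the caspase that FADD recruits, rose by 0.75 on the log2 scale (edgeR adjusted p = 0.0178), CASP10 by 0.51 (edgeR adjusted p = 0.0238) and XIAP, an inhibitor of caspases, by 0.82 (edgeR adjusted p = 0.00694). CFLAR, which competes with caspase-8 for FADD, was the other that rose (0.48, edgeR adjusted p = 0.0205, chosen after its values were seen). With the replicate block 5 rose and 3 fell, while over all 14857 genes tested 2406 rose and 2251 fell with it. Without 10 µM replicate 4 only 1 rose. DIABLO was not called without 10 µM replicate 3 or 4 or any 1 of the controls, 2 genes fell without the 20 µM library or 10 µM replicate 2, and 2 rose without control 4. The median log2 fold change was 0.21. At 20 µM against 10 µM XIAP (1.07, edgeR adjusted p = 0.00657) and DAXX were called higher and DIABLO lower, with a median of 0.01. Over all genes tested in that contrast, 11.7% were called higher and 14.6% lower. In the list 1 was higher with the replicate block or without 10 µM replicate 2 or 3. DAXX was chosen after its values were seen.

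Of the 25 genes of the NF-kB arm, 5 rose and 1 fell at 10 µM, with a median log2 fold change of 0.02. The shares over all genes tested at that dose were 9.34% higher and 9.79% lower. BIRC3, a ubiquitin ligase bound by TRAFs, rose by 2.68 on the log2 scale (edgeR adjusted p = 0.00384), TRAF1 by 4.24 (edgeR adjusted p = 0.0131) and CYLD, a deubiquitinase that restrains NF-kB, by 1.06 (edgeR adjusted p = 0.00234). TNFAIP3, an editor of ubiquitin chains that also restrains it, and BIRC2 were the other 2 that rose, and TRAF4 fell (-0.43, edgeR adjusted p = 0.0200). These last 3 were chosen after their values were seen. TRAF1 had 31, 5, 0 and 0 counts in controls 1 to 4 and 100, 152 and 96 at 10 µM. The size of its fold change therefore depends on the prior count. With the replicate block 5 rose and 4 fell, while over all 14857 genes tested 2406 rose and 2251 fell with it. Without 10 µM replicate 3 or 4 or controls 2 or 3, 3 rose. TRAF4 was not called without 10 µM replicate 3 or 4. In the single 20 µM library 10 of the 25 were called higher than at 10 µM, as were 11.7% of all genes tested. The count was 8 with the replicate block and 7 to 11 with single libraries left out. BIRC3 was higher by 2.79, CYLD by 1.36 and TRAF1 by 4.34, and TRAF1 lost its call with the replicate block (edgeR adjusted p = 0.671).

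**Figure D4:**
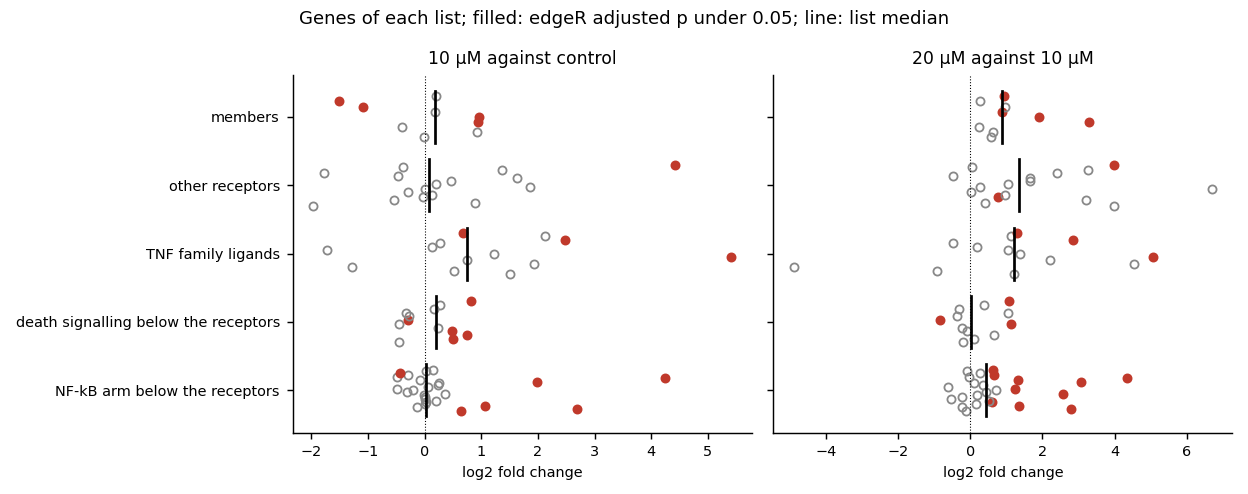
Log2 fold change of each tested gene of the 10 described genes and of 4 further lists, for 10 µM against control (left) and for 20 µM against 10 µM (right). Filled points have an edgeR adjusted p under 0.05 and lines are list medians, which at 10 µM against control are 0.19 for the described genes, 0.07 for other receptors, 0.75 for ligands, 0.21 for death signalling and 0.02 for the NF-kB arm. The fitted values of genes near 0 counts in a group, such as TNF and TRAF1, depend on the prior count.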

How the data were processed

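RNA was measured in 8 K562 libraries. Per the labels' protocols, ribosomal RNA was removed from total RNA and random primers were used for the cDNA. The deposited file gives counts in whole numbers for each gene in each library, and the submitters' processing notes name bcl2fastq 2.0, HISAT2, StringTie, DESeq2, limma and hg38, with no role given. Of its 19447 symbols 19029 are in GENCODE release 29, and 9 unnamed lines holding 0 counts were left out. A count may not be a single read, since 2958 entries stand at 4 counts and 401 at 1 count, and intervals and floors (3 counts for a library at 0) cover counting error only.

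CPM was computed from raw library totals, and leaves out the TMM factor (0.9029 to 1.0852). Genes were filtered with filterByExpr, scaled by TMM and tested with edgeR 4.0.16 (R 4.3.3, quasi-likelihood test, two-sided, Benjamini-Hochberg adjustment over all genes tested, threshold 0.05). A fit with 3 dose levels gave 10 µM against control and 20 µM against 10 µM, and a fit with 2 levels gave both doses pooled. SEs of log2 fold changes were derived from the F statistic. The steps were tested on simulated data. Alternatives were other scalings and filters, DESeq2 1.42.0, limma-voom (limma 3.58.1), the replicate block, each naming pattern alone and each library left out.

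Controls and treated libraries share replicate numbers. Over 13101 genes, the deviations of same-numbered libraries from their groups were correlated, at 0.453, 0.251, 0.390 and 0.262 for numbers 1 to 4. With the doses apart the values were 0.136, 0.230 and 0.417 for numbers 2 to 4. Each was over 0.1, so a pairing by number was taken as possible, from the data alone. The main fits leave this pairing out, and only the alternative with the replicate block includes it. Among digit-named libraries different numbers correlated too (0.310 for treated 3 with control 2 and 0.242 for treated 2 with control 3), so there the correlation does not single out the same number.

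The 10 genes and the 4 further lists were chosen with earlier results of these data known. From each further list the 3 tested genes with the smallest p with both doses pooled are named, and for each of the 10 called there with all treated libraries on one side of the controls, the 3 genes nearest in profile (log2 of CPM plus 0.1). Promoter sequences are RefSeq's, for GRCh38.p14.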

Additional observations from a re-analysis of the deposited data

Results flagged for a closer look

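FADD in control 2 stood at 23.5 CPM, the lowest of the 4 controls and apart from the other 3, its gap to the nearest being 0.874 of the whole range, above Dixon's critical value of 0.829 for 4 samples. This was 1 of 22 such groups examined, and chance flags about 1 in 20. Without control 2 the log2 fold change of FADD at 10 µM against control was -0.10.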

How the results depend on the processing

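Of the values of the 10 genes under the alternatives, 378 kept direction and side of the threshold, 16 lost a call, 14 gained one and 9 changed sign. At 10 µM against control, FADD, near 0 throughout, changed sign under upper-quartile scaling (0.022), at a filter of 1 CPM (0.0015), among digit-named libraries (0.027) and with single libraries left out (-0.115 to 0.061). With both doses pooled it was -0.019 without the 20 µM library (-0.019 to 0.246 with each left out). Among letter-named libraries at 10 µM, TRADD was -0.050 and CD40 -0.349. At 20 µM against 10 µM, FAS was -0.37 with the replicate block. With both doses pooled, the genes called numbered 3395 by DESeq2, 2815 with the replicate block, 3137 among digit-named and 0 among letter-named libraries (by edgeR, with 2694 at an unadjusted p under 0.05), and 64 to 3021 with single libraries left out. Of the 10 genes, 1 was called by limma-voom, 0 among letter-named libraries and 1 to 4 with single libraries left out. The digit-named libraries, and the set without the 20 µM library, hold no 20 µM treatment. Their pooled fits are those of 10 µM against control, and they enter the totals above under both contrasts. At 10 µM, the genes called numbered 4657 with the replicate block, 1002 among letter-named libraries and 1364 to 3021 with single libraries left out (2 to 4 of the 10 genes). At 20 µM against 10 µM these ranges were 2857 to 4300 genes and 3 to 5 of the 10. The replicate block changed no call of the 10 genes other than those given for TNFRSF10A and TRADD. DESeq2 gave TNFRSF10B no adjusted p with both doses pooled. The contrast of 20 µM with 10 µM could not be run among digit-named libraries or without the 20 µM library. The cause of these changes was not tested. FAS and TNFRSF10D, at 0 to 22 counts per library, are limited by depth.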
